A study of Arabidopsis thaliana with 12 samples.

Results

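Seedlings that overexpress HRE2 (HRE2ox) were compared with wild-type seedlings (WT) after both had spent 4 h in low oxygen. The comparison takes 4 of the 12 arrays of the series, chosen by their titles, with 2 biological replicates in each group. HRE2ox seedlings carried 35S::HRE2 in the Columbia-0 background, and the labels do not say how many independent transgenic lines they represent. The viral 35S promoter is active in most plant tissues, in air as in low oxygen, so the seedlings had the transgene before the treatment began. WT seedlings were untransformed Columbia-0. All seedlings were 7 days old, had germinated in air on half-strength medium with sucrose, and were kept in the dark at 23 °C during the treatment, in 1% oxygen (hypoxia) or 21% oxygen (air). The other 8 arrays are used beside them: HRE2ox and WT seedlings in air, and 35S::HRE1 seedlings (HRE1ox) in hypoxia and in air, with 2 arrays each. RNA came from whole seedlings and was read on Affymetrix ATH1 arrays, which carry many probe sets that each report one or a few transcripts.

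HRE1 and HRE2 belong to group VII of the ethylene response factors, transcription factors that bind DNA through an AP2 domain. Several members of this group carry an N-terminal cysteine that plant cysteine oxidases oxidise when oxygen is present, which marks the protein for destruction, so that the proteins accumulate when oxygen falls. Genes that rise in low oxygen across Arabidopsis tissues include those for fermentation enzymes, for regulators of calcium and reactive oxygen, and for many short proteins of unknown function.

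A level is given as log2 (intensity + 1) of the deposited intensity, and a difference as HRE2ox minus WT on that scale ± SE. Of 22810 probe sets, 13687 were tested, those with an intensity of 15 or more in no fewer than 2 arrays of the series. A probe set was called at an adjusted p under 0.05 from limma over all tested probe sets. A level under log2 4, the value of that minimum, lies near background, and a difference against such a group is also given as a bound against log2 4. HRE2 itself has no assigned probe set, so its level is not reported here, and whether one of the probe sets without an assigned gene, 245173_at below included, reads the transgene was not tested. The files assign 1 gene to 7341 of the tested probe sets, and the others appear by identifier. With 2 arrays a group, precision is limited by their number. Groups said not to overlap, or to lie lower on both arrays, are described by this and not tested, since so few arrays can separate without a true difference.

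Replicate 1 of WT hypoxia stood apart from the other 3 arrays by an added control. The added thr control read 7.17 to 7.49 at its 5' end on replicate 1 of the WT and HRE1ox groups, against 3.63 to 4.15 on the other 8 arrays of the series. For GAPDH of the seedlings themselves, 3' minus 5' signal was 2.41 to 2.69 in HRE2ox hypoxia, against 2.01 to 2.56 in WT hypoxia. Over the tested probe sets, HRE2ox hypoxia replicate 1 correlated more closely with WT hypoxia replicate 2 (r = 0.992) than with its own replicate (r = 0.989). HRE2ox hypoxia replicate 2 correlated more closely with WT hypoxia replicate 1 (r = 0.986) than with WT hypoxia replicate 2 (r = 0.983). Leaf and root were both represented: RCA, the activase of Rubisco, read 13.66 to 14.49 in HRE2ox hypoxia and 13.68 to 14.24 in WT hypoxia, and PYK10, a root beta-glucosidase, read 12.97 to 13.11 in HRE2ox hypoxia and 13.18 to 13.29 in WT hypoxia. The root hair gene EXPA7 was near background, at 2.26 in HRE2ox hypoxia and at 2.61 to 2.75 in WT hypoxia. EXPA18 and GH9C1 of the root and root hair list were near background too. They read 3.12 to 3.14 and 2.75 to 2.88 in HRE2ox hypoxia, and 3.11 to 3.13 and 3.09 to 3.37 in WT hypoxia. Of the tested genes of that list, PYK10 alone lay above log2 4. In whole seedlings, fewer cells of a type and less RNA per cell cannot be told apart.

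Under hypoxia, 2 transcripts set HRE2ox apart from WT by a wide margin, and 8 others differed by 0.99 to 1.99 in size. The limma test called 10 of 13687 probe sets (0.0731%), 4 higher (0.0292%) and 6 lower (0.0438%) in HRE2ox. At an unadjusted p under 0.05 there were 1238 (9.05%), the 10 included, with 548 higher and 690 lower. Among the 10, 5 have an assigned gene: AT5G24240 and AT1G66100 were higher, and AT1G73600, AT1G10585 and AT2G07777 were lower. Of the 10, 245173_at and AT5G24240 were called in each of the 14 alternatives tried. The other 8 were lost when the 4 arrays apart were left out and when the fit held the compared arrays alone, and each was lost on leaving out at least 3 of the 4 arrays in turn. Leaving out HRE2ox hypoxia replicate 1 gave 3 calls and leaving out replicate 2 of that group gave 2. Leaving out WT hypoxia replicate 1 gave 3 and leaving out replicate 2 gave 6. A block term for the 4 arrays apart gave 101, the 10 among them.

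**Figure D1:**
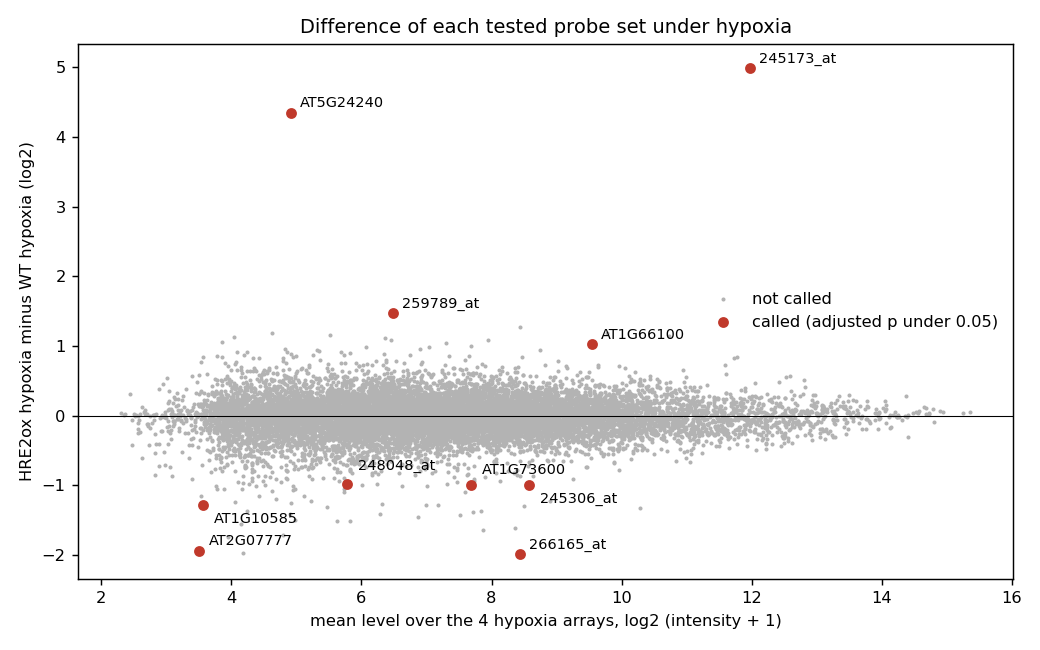
Each point is 1 tested probe set, with its mean level over the 4 hypoxia arrays on the horizontal axis and HRE2ox hypoxia minus WT hypoxia on the vertical axis (both log2), and the 10 called probe sets in red. Probe set 245173_at (4.98) and AT5G24240 (4.35) lie far above all others, and the called probe sets below 0 reach -1.99.

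The largest difference was that of probe set 245173_at, which has no assigned gene. It read 14.40 and 14.52 in HRE2ox hypoxia, against 9.60 and 9.35 in WT hypoxia. Both HRE2ox arrays lay far above both WT arrays. The difference was 4.98 ± 0.20 (31.6-fold, adjusted p = 5.92e-06). In HRE2ox the level was as high without low oxygen, at 14.51 and 14.40 in air, whereas in WT it was near background in air, at 3.39 and 3.23. Hypoxia minus air was thus 0.01 ± 0.20 in HRE2ox, with a 95% interval of -0.45 to 0.46, and 6.17 ± 0.20 in WT, or at least 5.48 in WT against log2 4. The fitted genotype difference was smaller in hypoxia than in air, with an interaction of -6.16 ± 0.28 (adjusted p = 4.05e-05) that was called in each of 18 alternatives. Its size rests on the WT air level near background: with that level set to log2 4, the difference in air was at least 10.45 and the interaction -5.47. HRE1ox seedlings read 9.83 and 9.17 in hypoxia, like WT, and 3.15 and 3.17 in air.

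AT5G24240, a member of the phosphatidylinositol 4-kinase family, was the second transcript that stood far apart. It read 6.96 and 7.22 in HRE2ox hypoxia, against 2.72 and 2.76 in WT hypoxia. HRE1ox hypoxia arrays read 2.37 and 2.53. AT5G24240 was tested only because the 4 HRE2ox arrays passed the minimum. That HRE2ox alone lay above log2 4 is thus no separate result. The fitted difference from WT was 4.35 ± 0.15 (adjusted p = 3.48e-06), and against log2 4 the level in HRE2ox was at least 8.51-fold higher. In air the fitted difference was 4.75 (adjusted p = 7.79e-07), with WT again near background, and against log2 4 the level was at least 11.3-fold higher. The interaction of -0.40 was not called (adjusted p = 1), and with WT near background in both conditions the sizes of the differences cannot be set against each other. Hypoxia minus air was -0.41 in HRE2ox. Of the 4 nearest coding genes on the chromosome, 2 have an assigned probe set, and neither was raised with it. AT5G24230 read 2.24 on both HRE2ox hypoxia arrays, against 2.22 and 2.24 in WT hypoxia, under the minimum for a test, and AT5G24260 differed by -0.24 (adjusted p = 0.758).

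The remaining probe sets that were higher in HRE2ox differed less, and HRE1ox arrays also read above WT. AT1G66100, which encodes a thionin-family peptide of the kind known from plant defence, read 10.06 and 10.05 in HRE2ox hypoxia, against 9.11 and 8.95 in WT hypoxia. The groups did not overlap, and the difference was 1.03 ± 0.13 (adjusted p = 0.0303). HRE1ox seedlings in hypoxia read 10.49 and 10.36, above both other genotypes. Probe set 259789_at read 7.19 and 7.26 in HRE2ox hypoxia, against 5.74 and 5.77 in WT hypoxia. Its difference was 1.47 ± 0.16 (adjusted p = 0.0141), and HRE1ox hypoxia arrays read 6.62 and 6.87, between the other 2 genotypes.

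Among the genes called lower in HRE2ox than in WT, AT1G73600 encodes a relative of the phosphoethanolamine N-methyltransferases, which make phosphocholine for membrane lipids. It read 7.20 and 7.17 in HRE2ox hypoxia, against 8.13 and 8.22 in WT hypoxia, and HRE1ox hypoxia arrays lay between, at 7.82 and 7.60. The difference from WT was -0.99 ± 0.13 (adjusted p = 0.0336), with no overlap of the groups. It was larger in air, at -1.97 (adjusted p = 2.34e-04), although the interaction of 0.98 did not pass (adjusted p = 0.317). AT1G73600 responded to low oxygen by 1.25 in HRE2ox and by 0.27 in WT.

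AT1G10585, a basic helix-loop-helix transcription factor gene, and AT2G07777 were near background in HRE2ox and just above it in WT. AT1G10585 read 2.93 on both HRE2ox hypoxia arrays, against 4.23 and 4.20 in WT hypoxia. It was tested only because these 2 WT arrays passed the minimum: the other 10 arrays of the series read 2.83 to 3.07. The fitted difference was -1.29 ± 0.12 (adjusted p = 0.00452), but against log2 4 the level was only at least 1.16-fold lower. HRE1ox hypoxia arrays were equally low, at 2.83 and 2.92. AT2G07777 read 2.56 and 2.52 in HRE2ox hypoxia, against 4.61 and 4.35 in WT hypoxia. Its fitted difference was -1.94 ± 0.18 (adjusted p = 0.00452), at least 1.39-fold lower against log2 4. Here HRE1ox, at 4.34 and 4.63, was level with WT. AT2G07777 was tested only because the hypoxia arrays of WT and HRE1ox passed the minimum. In air both genes were near background in both genotypes, so no difference could be measured there. The interactions did not pass (adjusted p = 0.103 for AT1G10585 and 0.127 for AT2G07777).

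The other 3 probe sets called lower in HRE2ox than in WT have no assigned gene. Probe set 266165_at read 7.71 and 7.16 in HRE2ox hypoxia, against 9.54 and 9.32 in WT hypoxia, a difference of -1.99 ± 0.21 (adjusted p = 0.0104). The spread within HRE2ox was wider here than for the other called probe sets, yet the groups lay well apart. Probe set 245306_at differed by -0.996 ± 0.13 (adjusted p = 0.0336) and 248048_at by -0.99 ± 0.12 (adjusted p = 0.0226). In HRE1ox hypoxia, 266165_at and 245306_at were level with HRE2ox, at 7.68 to 7.73 and 7.99 to 8.07, while 248048_at lay between HRE2ox and WT, at 5.79 and 5.83.

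**Figure D2:**
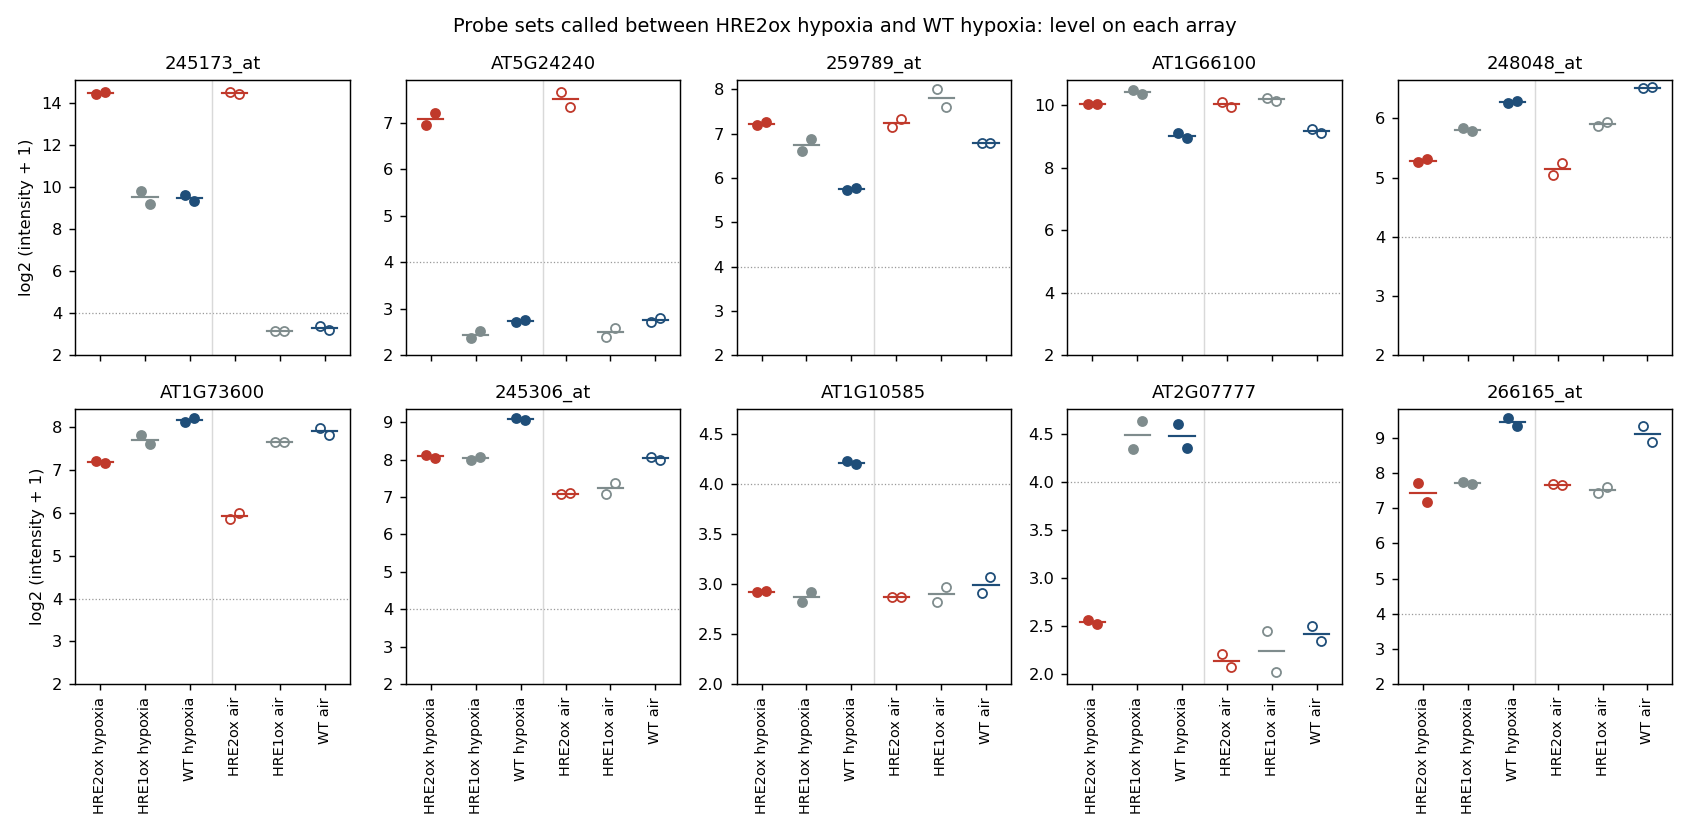
Level of each of the 10 called probe sets on every array (log2 intensity + 1), with hypoxia groups as filled points on the left, air groups as open points on the right, short lines at group means and a dotted line at log2 4. Probe set 245173_at and AT5G24240 are high on all 4 HRE2ox arrays, and 245173_at rises in the other genotypes only in hypoxia.

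The direct comparison of HRE2ox with HRE1ox in hypoxia shares the HRE2ox hypoxia arrays with the comparison against WT. It called 89 probe sets (0.65%), 27 higher and 62 lower (0.453%) in HRE2ox, and 3 of the 10 above were among them. These were 245173_at at 4.96 (adjusted p = 6.18e-06), AT5G24240 at 4.64 (adjusted p = 1.92e-06) and AT2G07777 at -1.95 (adjusted p = 0.00195). The other 7 were not called between the transgenic lines, with differences from -0.53 to 0.48. For AT1G73600 the interval of that difference was -0.82 to -0.24, and for 245306_at it was -0.23 to 0.34.

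Hypoxia-responsive genes rose in both genotypes, and none of those tested was called between HRE2ox and WT in hypoxia. Of 52 genes on a list of such genes, 28 have an assigned probe set, and all 28 were tested. In hypoxia over air, 26 of them were called higher in HRE2ox, with a median of 3.47 (3.38% of all tested probe sets), and 26 in WT, with a median of 3.65 (3.31% of all). Between the genotypes in hypoxia, 0 of the 28 were called by limma (0.0731% of all). Their differences had a median of -0.13, against -0.01 over all tested probe sets, and 18 of 28 lay below 0, against 52.1% of all. At an unadjusted p under 0.05, 5 were lower and 0 higher, against 5.04% and 4% of all. Leaving out either HRE2ox hypoxia array left 2 (replicate 1) or 3 (replicate 2) of these lower, and leaving out either WT hypoxia array left 2 (replicate 1) or 3 (replicate 2), with 1 higher in the last case. The number below 0 was then 17 to 22.

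Among regulators on this list, AT3G10040, a trihelix transcription factor gene that in Arabidopsis restrains the group VII factors, read 9.14 and 9.40 in HRE2ox hypoxia, against 9.79 and 9.28 in WT hypoxia. The groups overlapped, and the difference was -0.27 ± 0.25 (adjusted p = 0.862). It was the 1 gene of 15 on the list of oxygen sensing and group VII factors that could be tested. CML38, a calmodulin-like protein, read 10.47 and 10.27 in HRE2ox hypoxia, against 10.40 and 10.62 in WT hypoxia, again with overlap. Its difference was -0.14 ± 0.20, with an interval of -0.58 to 0.30. CML38 had risen by at least 6.37 against log2 4 in HRE2ox, whose air level was near background, and by 6.39 in WT.

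None of the 3 tested fermentation genes was called, but only 0.0731% of all tested probe sets were, so this says little about them. AT4G17260, a lactate dehydrogenase, read 8.26 and 7.75 in HRE2ox hypoxia, against 8.74 and 8.82 in WT hypoxia. Both HRE2ox arrays lay below both WT arrays, and the difference was -0.78 ± 0.16 (adjusted p = 0.202), or -1.04 to -0.53 on leaving out 1 array. Of the alternatives, only a limma fit with a crossed replicate block called AT4G17260 (adjusted p = 0.0475). That block reverses the replicate numbers of HRE2ox and was chosen after the replicate pattern of these data was seen. The call is therefore no separate support for a difference. PDC2, a pyruvate decarboxylase of ethanol fermentation, read 10.07 and 9.77 in HRE2ox hypoxia, against 10.26 and 10.59 in WT hypoxia. Its groups did not overlap, and the difference was -0.50 ± 0.26 (adjusted p = 0.636). GAPC2, a glycolytic glyceraldehyde-3-phosphate dehydrogenase, differed by -0.20 ± 0.13. These 3 are the tested genes of 23 on the list of fermentation and glycolysis.

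The other members of the hypoxia list with an unadjusted p under 0.05 were AT3G23170, AT4G24110, AT4G33560 and AT5G66985. AT3G23170 differed by -0.88 ± 0.36 and AT4G24110 by -0.87 ± 0.36, and in both the higher HRE2ox array lay just under the lower WT array, by less than the spread within each group. AT4G33560 differed by -0.47 ± 0.20 and AT5G66985 by -0.31 ± 0.12. At the other end of the list, AT2G15880 stood at 0.65 ± 0.39 and AT3G29970 at 0.23 ± 0.31. AT5G10040 rose by at least 7.44 in each genotype against log2 4, since both were near background in air. It differed by 0.00, with an interval of -0.42 to 0.42. FHL, a phytochrome A nuclear import factor, also differed by 0.00, with an interval of -0.40 to 0.40.

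**Figure D3:**
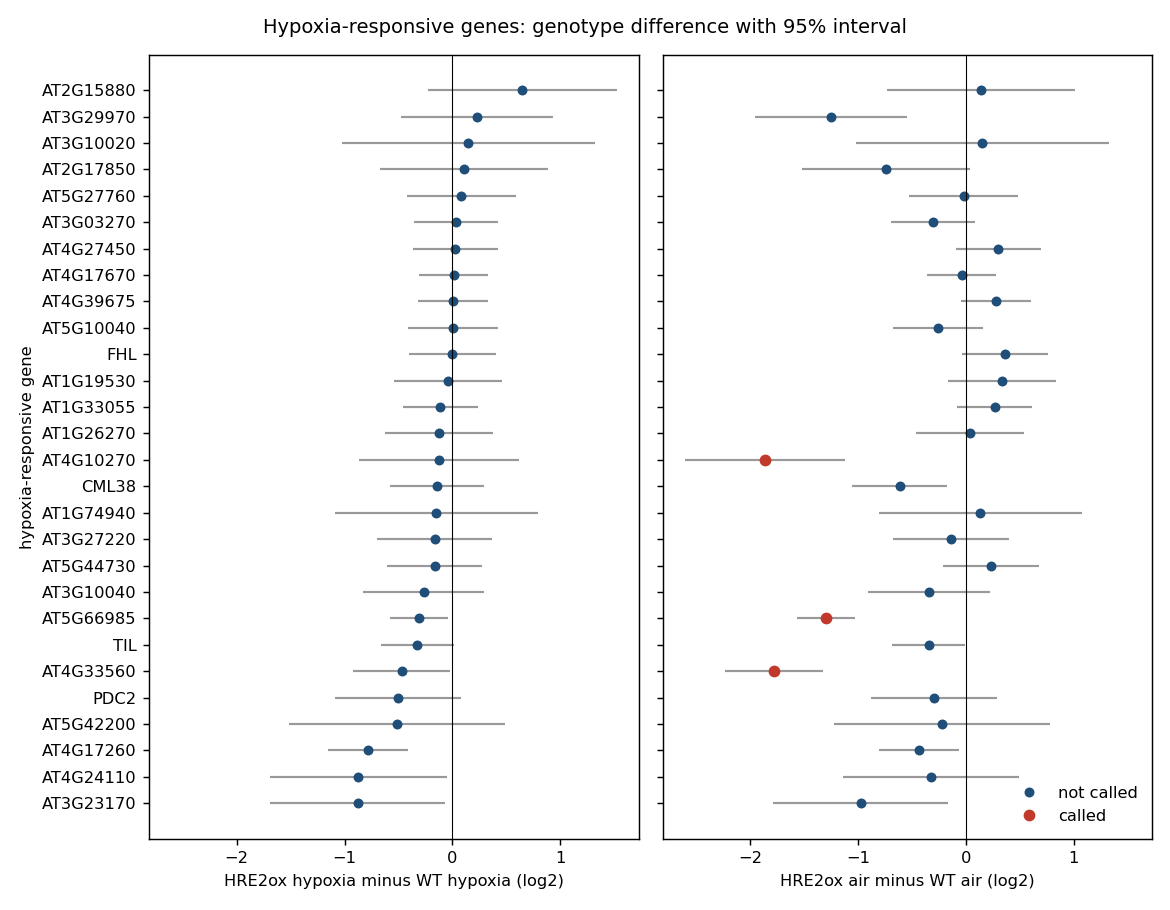
Difference between HRE2ox and WT for each of the 28 tested hypoxia-responsive genes, in hypoxia (left) and in air (right), as log2 differences with 95% intervals, and with called genes in red. No gene is called in hypoxia (0.0731% of all tested probe sets), and 3 of the 28 are called lower in air (0.694% of all).

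Set against HRE1ox in hypoxia, the genes of this list had a median difference of -0.76 in HRE2ox. Of the 28, 27 lay below 0, against 50.6% of all tested, and 4 were called lower, against 0.453% of all. AT4G17260 differed from HRE1ox by -1.42 (adjusted p = 0.00499), FHL by -1.22 (adjusted p = 0.0204), AT4G17670 by -0.81 (adjusted p = 0.0436) and AT5G66985 by -0.72 (adjusted p = 0.0336). The HRE2ox hypoxia arrays are the same as in the comparison with WT, so the sets of differences are not independent. A wider set can be taken from arrays outside the comparison. The 727 probe sets called higher in HRE1ox hypoxia than in HRE1ox air had a median difference of -0.08 between HRE2ox and WT in hypoxia, with 60.9% below 0, against 52.1% of all tested. The 969 called lower had a median of -0.05, with 57.6% below 0.

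Outside the hypoxia genes, 14 other lists had 40 tested members, none of which was called by limma (0.0731% of all tested). At an unadjusted p under 0.05, 1 was higher and 7 were lower, against 4% and 5.04% of all tested. STZ, a zinc finger repressor of stress responses, read 6.07 and 6.02 in HRE2ox hypoxia, against 6.62 and 6.86 in WT hypoxia. It lay lower on both HRE2ox arrays, by -0.70 ± 0.13 (adjusted p = 0.141). CP1, a cysteine protease listed with the seed reserve genes, read 5.14 and 4.999 in HRE2ox hypoxia, against 6.77 and 6.39 in WT hypoxia. It differed by -1.51 ± 0.33 (adjusted p = 0.206), and in air by 0.46. With a block for the 4 arrays apart, limma called STZ (adjusted p = 0.0392) and CP1 (adjusted p = 0.0182). The other 5 that lay lower were the small heat shock gene AT5G51440 (-1.08), XTH16 of cell wall remodelling (-0.71), the iron regulator PYE (-0.64), the mitochondrial stress gene AT2G21640 (-0.57) and GH3.3, which conjugates auxin (-0.49). AT1G47400, an iron-deficiency peptide gene, was the 1 that lay higher, by 0.44. These genes were picked once their values were known.

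In air, without low oxygen, the same genotypes differed at 128 probe sets (0.935%), 33 higher and 95 lower (0.694%) in HRE2ox, and 7 of the 10 probe sets called in hypoxia were among them. One label conflict touches these arrays: WT air replicate 2 is wild type by its title but 35S::HRE2 by its ecotype entry, and it was grouped by title. Probe set 245173_at read 3.23 on it, as on the other WT air array. The number called in air was 42 without this array and 19 without the other WT air array. It was 18 on leaving out HRE2ox air replicate 1 and 22 on leaving out replicate 2 of that group. The air arrays are not used in the hypoxia comparison, so the 128 probe sets could be read there as a set chosen elsewhere, although the spread of each probe set was estimated from all 12 arrays in both.

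The direction seen in air was found again in hypoxia for nearly all of them, at a smaller size. Of the 33 that were higher in HRE2ox air, 32 lay above 0 in hypoxia, with a median of 0.49 in hypoxia and 0.85 in air. An unadjusted p under 0.05 was reached by 26 of them (78.8%), against 4% of all tested probe sets in that direction. Of the 95 that were lower in HRE2ox air, 87 lay below 0 in hypoxia, with a median of -0.46 in hypoxia and -1.05 in air. Here 61 (64.2%) reached an unadjusted p under 0.05, against 5.04% of all. Without the 4 arrays apart in the hypoxia comparison, 31 of 33 and 87 of 95 kept the direction. These sets were still chosen with those arrays in the fit, among them WT air replicate 1, and WT hypoxia replicate 1 is another of the 4. The fitted difference was smaller in hypoxia for 31 of the 33 and 91 of the 95. The sets had been chosen for a large difference in air. Some members of each set were near background in both genotypes in hypoxia, so no difference could be measured for them there. Among them were AT4G16680 (0.77) of the 33, and AT4G22470 (-0.02) and AT5G57760 (0.06) of the 95. Such members are included in the counts of direction and of size, which for them rest on levels near background.

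**Figure D4:**
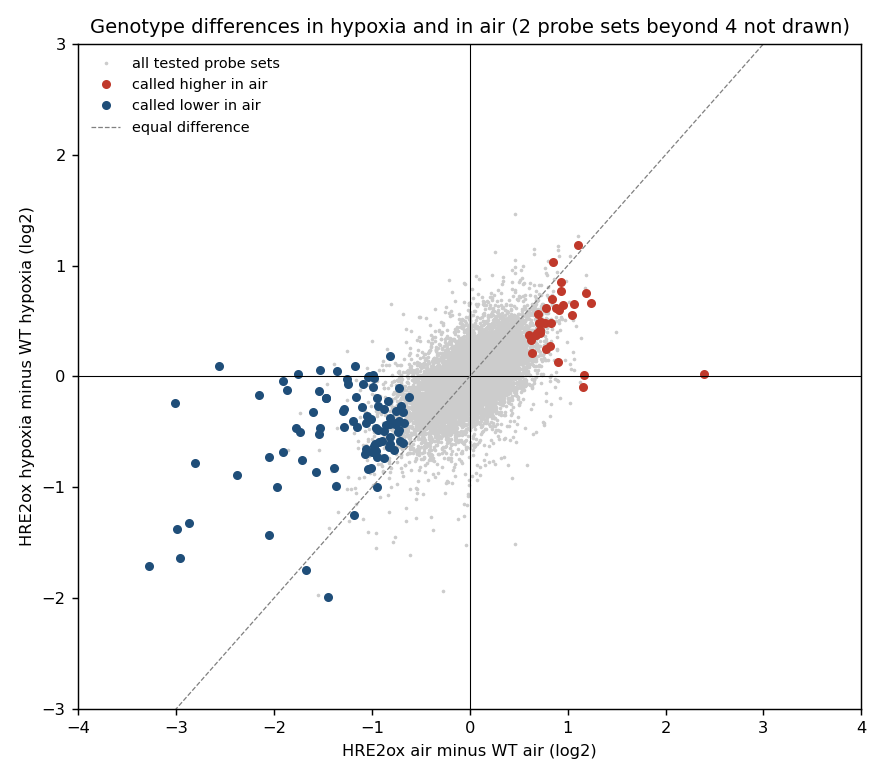
Each point is 1 tested probe set, with HRE2ox air minus WT air on the horizontal axis and HRE2ox hypoxia minus WT hypoxia on the vertical axis (log2), and the probe sets called in air in colour. Nearly all probe sets called higher in air (32 of 33, red) lie above 0 and most called lower (87 of 95, blue) lie below 0, mostly nearer to 0 than the dashed line of equal differences. Of the 33, 245173_at and AT5G24240 lie beyond the axes and are not drawn.

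Several named genes of the air set lay over 1 log2 unit lower in HRE2ox hypoxia without reaching a call there. They were picked once their values were known. AT4G12490, of a family of lipid transfer proteins, read 3.86 and 4.01 in HRE2ox hypoxia, against 5.26 and 6.03 in WT hypoxia. It differed by -1.71 in hypoxia (adjusted p = 0.131) and by -3.28 in air (adjusted p = 0.00218), and was at least 3.12-fold lower in hypoxia and 6.50-fold lower in air against log2 4. AT2G04050, a MATE family transporter, read 7.22 and 7.07 in HRE2ox hypoxia, against 8.27 and 8.78 in WT hypoxia, and HRE2ox lay lower on both arrays. It differed by -1.38 in hypoxia (adjusted p = 0.218) and by -2.99 in air (adjusted p = 0.00412). ATC, a relative of the floral repressor TFL1, differed by -1.75 in hypoxia (adjusted p = 0.0967) and by -1.68 in air (adjusted p = 0.0334). With HRE2ox near background in hypoxia, it was there at least 1.77-fold lower against log2 4. AT1G06830, a glutaredoxin, differed by -1.25 in hypoxia (adjusted p = 0.0772) and by -1.18 in air (adjusted p = 0.0246), and was likewise at least 1.60-fold lower in hypoxia. AT2G43620, of the chitinase family, fell short of 1 log2 unit in hypoxia, at -0.78, and differed by -2.81 in air. On the higher side, QQS, which affects starch content, differed by 1.19 in hypoxia (adjusted p = 0.0947) and by 1.11 in air (adjusted p = 0.0332), where WT was near background and the level was at least 1.93-fold higher.

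For some transcripts the genotype difference was present in air and not detected in hypoxia. The interaction called 4 probe sets (0.0292%), and 354 (2.59%) had an unadjusted p under 0.05. Besides 245173_at, these were 260869_at, 263096_at and 264953_at, none with an assigned gene. Probe set 260869_at read 10.02 and 10.09 in HRE2ox hypoxia, against 10.06 and 10.52 in WT hypoxia, and in air 2.63 and 2.44 in HRE2ox, against 5.72 and 5.37 in WT. The hypoxia levels overlapped, while in air both HRE2ox arrays were near background and far below WT. Its difference was -0.24 in hypoxia, with an interval of -0.66 to 0.19, and -3.01 in air, and the interaction was 2.77 ± 0.27 (adjusted p = 0.0143). With the HRE2ox air level set to log2 4, the level in air was at least 2.92-fold lower and the interaction was 1.31. With a pseudocount of 16 it was 1.34 and not called (adjusted p = 0.52), so this call rests on levels near background.

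Probe set 263096_at read 13.18 and 13.23 in HRE2ox hypoxia, against 13.11 and 13.10 in WT hypoxia, and in air 7.01 and 7.44 in HRE2ox, against 10.07 and 9.50 in WT. Its difference was 0.10 in hypoxia, with an interval of -0.38 to 0.57, and -2.56 in air, and the interaction was 2.66 ± 0.30 (adjusted p = 0.0253). Probe set 264953_at followed the same order, with -0.17 in hypoxia, an interval of -0.50 to 0.17, -2.16 in air and an interaction of 1.99 ± 0.21 (adjusted p = 0.0208). All 3 rose in both genotypes on going into low oxygen, by 5.98 to 7.52 in HRE2ox and by 3.33 to 4.74 in WT; for 260869_at the rise in HRE2ox was at least 6.05 against log2 4. With a replicate block 263096_at lost its interaction call (adjusted p = 0.0633). Of the 4, only 245173_at kept its interaction call when either HRE2ox air array, either HRE2ox hypoxia array or WT air replicate 1 was left out. The adjusted p of the other 3 then ran from 0.0606 to 0.218. Leaving out WT hypoxia replicate 1 or 2 kept 260869_at as well, and leaving out WT air replicate 2 kept all 4.

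A like order was seen in 3 of the 28 tested members of the hypoxia list. These were called lower in HRE2ox air, as were 0.694% of all tested probe sets. AT4G10270, of a wound-responsive family, differed by -0.13 in hypoxia, with an interval of -0.87 to 0.61, and by -1.86 in air (adjusted p = 0.0388). AT4G33560, of the same family, differed by -0.47 in hypoxia and by -1.78 in air (adjusted p = 0.00611), where HRE2ox was near background and at least 1.80-fold lower. AT5G66985 differed by -0.31 in hypoxia and by -1.30 in air (adjusted p = 0.00163). Their interactions of 1.74, 1.31 and 0.99 were not called (adjusted p = 1, 0.62 and 0.23), so a difference between hypoxia and air is not shown for these 3.

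**Figure D5:**
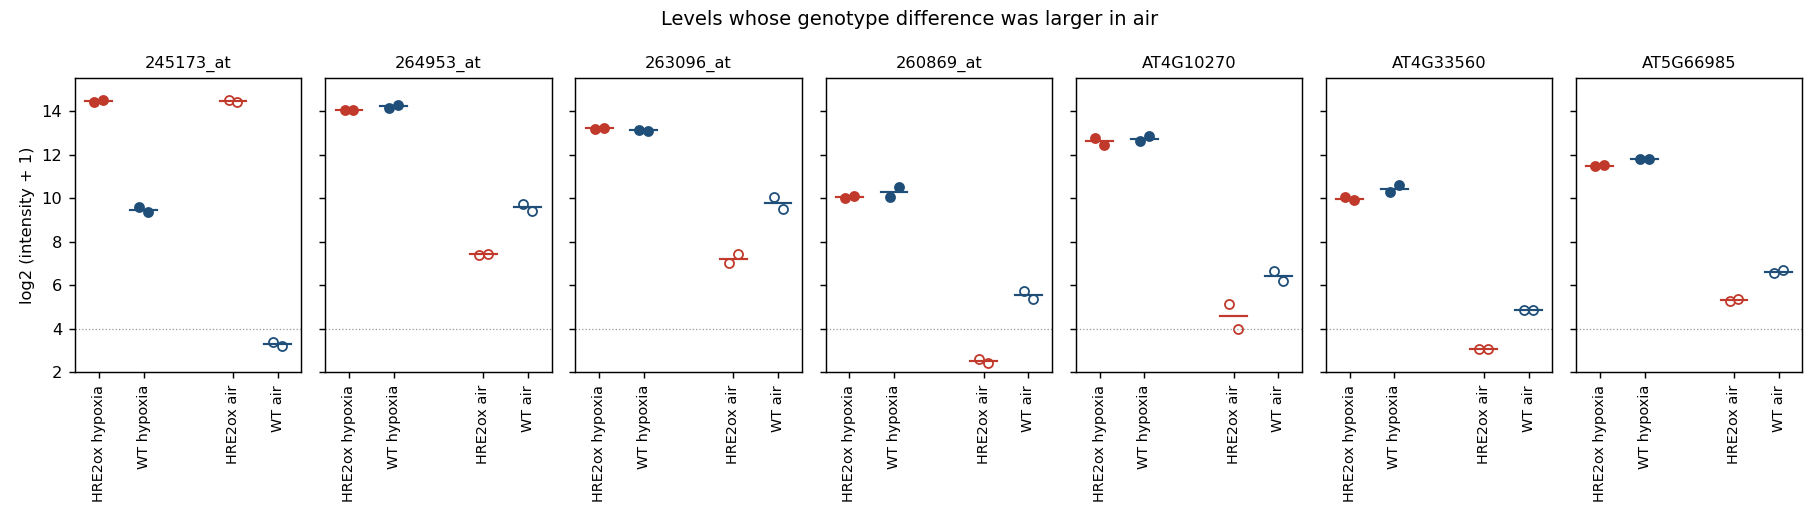
Level on each array (log2 intensity + 1) of the 4 probe sets called in the interaction and of 3 hypoxia-responsive genes called lower in HRE2ox air, with HRE2ox left of WT in hypoxia (filled) and in air (open), lines at group means and a dotted line at log2 4. Apart from 245173_at, HRE2ox minus WT ran from -0.47 to 0.10 in hypoxia and from -3.01 to -1.30 in air.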

How the data were processed

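Total RNA of whole seedlings was read on 12 ATH1 arrays in 6 groups of 2. The deposited values are intensities on a linear scale, which the authors made with GCRMA per the submitters' processing notes; its version and settings are not stated in these sources. GCRMA corrects background and normalizes across arrays, so low levels are model estimates. Median intensity ran from 32.7 to 35.7 per array.

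From these values log2 (intensity + 1) was computed. Of 22810 probe sets, 64 controls were left out, and 9059 that did not reach an intensity of 15 on 2 arrays. A model of 6 group means over all 12 arrays was fitted with limma 3.58.1 in R 4.3.3 (lmFit, eBayes without trend, 6 residual and 3.25 prior degrees of freedom), so the spread is pooled over the groups. P-values are two-sided and adjusted by Benjamini and Hochberg within each comparison. The fit was tested on simulated data with independent noise on each array, without the replicate structure of these arrays. There it called 57 of 100 probe sets given a log2 difference of 1, and 96 of 100 others given a difference of 2. With so many calls the adjustment is less strict than in the hypoxia comparison, which had few. Differences of 1 can thus go uncalled, and the 57 may overstate how often they would be called here.

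The named genes are the called probe sets with an assigned gene, up to 6 called without one in each direction, members of the hypoxia, fermentation and oxygen sensing lists whatever their call, and the calls of the interaction. The comparison, the members and the lists were chosen with earlier results of these data known. Other genes were chosen after their values were seen, as the text says.

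The labels call the replicates biological but do not name separate cultures, so p-values measure the spread between these samples. Alternatives were a replicate block, a block for the 4 arrays apart, a fit of the compared groups, median centring, other filters, trend and robust variances, a pseudocount of 16, a minimum of 2-fold, and leaving out each array. A crossed replicate block and a fit without the 4 arrays apart were chosen after seeing the data. Genes come from a platform table joined to RefSeq.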

Additional observations from a re-analysis of the deposited data

Results flagged for a closer look

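Limma's interaction test called 4 probe sets, as having a difference between HRE2ox and WT that was not the same in hypoxia and air. Only 245173_at kept its call in all 18 alternatives. That of 263096_at was kept in 7 of 18, and those of 264953_at and 260869_at in 9 each. In a limma fit of the compared groups alone, 245173_at was the only call. Probe set 245173_at had an interaction of -6.16, with HRE2ox above WT by 4.98 in hypoxia and by 11.14 in air, where WT was near background and the difference was at least 10.45 against log2 4. The interaction was 2.77 for 260869_at, 2.66 for 263096_at and 1.99 for 264953_at, each lower than WT in air and within 0.24 log2 units of it in hypoxia. For 260869_at the HRE2ox air level was near background, and with it set to log2 4 the interaction was 1.31. The WT air group includes the array with conflicting labels, and the 4 calls held without it. Groups of 2 arrays are too small for a test of single outlying samples.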

How the results depend on the processing

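For HRE2ox against WT in hypoxia, 10 probe sets were called, and the number was 17 with a replicate block, 101 with the 4 arrays apart as a block, 147 with a crossed replicate block, 2 for the compared groups only, 19 with no filter, 2 without the 4 arrays apart and 2 to 6 on leaving out 1 array. In air, 128 became 799 with the block for the 4 arrays, 1100 crossed, 7 for the compared groups, 254 with no filter, 6 without the 4 arrays, 64 at 2-fold and 18 to 42 on leaving out 1 array. The 4 interactions became 17 with the block for the 4 arrays, 8 crossed, 1 for the compared groups, 1 without the 4 arrays and 1 to 4 on leaving out 1 array. Against HRE1ox in hypoxia, 89 became 353 with the block for the 4 arrays, 318 crossed, 4 for the compared groups, 4 without the 4 arrays, 56 at 2-fold and 28 to 33 on leaving out 1 array. The replicate block gave 145 in air, 3 interactions and 109 against HRE1ox. Replicate 1 minus replicate 2 correlated at 0.665 to 0.751 among the WT and HRE1ox groups, at 0.348 between both HRE2ox groups and at -0.584 to -0.242 between HRE2ox groups and the others, so the numbers do not pair samples over all groups. A fit on fewer arrays has fewer degrees of freedom. The cause of the other changes was not tested.

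Of the values of single probe sets under the alternatives, 135 of called ones kept their side of the threshold and 75 fell short of it, all in the same direction, and of those not called 685 kept it, 42 passed it and 35 changed sign. These 35 belong to members of the hypoxia list that were not called. With the block for the 4 arrays, AT5G10040 stood at -0.077, AT1G19530 at 0.14, AT1G74940 at 0.26 and AT3G27220 at 0.009. Without the 4 arrays, AT4G39675 stood at -0.046, AT5G10040 at -0.19, AT1G19530 at 0.061, AT1G74940 at 0.32 and AT5G42200 at 0.023. With each array centred on its median, FHL stood at 0.023. On leaving out 1 array, AT1G19530 ran from -0.15 to 0.061, AT1G26270 from -0.28 to 0.028, AT1G33055 from -0.24 to 0.022, AT1G74940 from -0.62 to 0.32, AT2G17850 from -0.13 to 0.34, AT3G03270 from -0.052 to 0.12, AT3G10020 from -0.37 to 0.67, AT4G10270 from -0.27 to 0.021, AT4G17670 from -0.10 to 0.12, AT4G27450 from -0.18 to 0.23, AT4G39675 from -0.058 to 0.077, AT5G10040 from -0.24 to 0.24, AT5G27760 from -0.15 to 0.32, AT5G42200 from -1.05 to 0.023, AT5G44730 from -0.36 to 0.034 and FHL from -0.27 to 0.27. Levels near log2 4 are limited by signal over background.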

Other observations

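A group of genes lay just outside the threshold, at an adjusted p of 0.0772 to 0.0967, picked once their values were known. AT3G62550, of the universal stress protein family, read 12.17 and 12.20 in HRE2ox hypoxia, against 11.35 and 11.36 in WT hypoxia. The groups lay apart by far more than their spread, with a difference of 0.84 ± 0.13 (adjusted p = 0.0871). AT4G09760, of the choline kinase family, read 7.504 and 7.58 in HRE2ox hypoxia, against 6.36 and 6.74 in WT hypoxia, a difference of 0.99 ± 0.15 (adjusted p = 0.0871). AT1G19960 and AT1G20070 stood at 1.11 ± 0.17 and 0.88 ± 0.13. On the lower side, AT5G54370, of the late embryogenesis abundant family, read 6.18 and 6.11 in HRE2ox hypoxia, against 7.85 and 7.34 in WT hypoxia, a difference of -1.45 ± 0.23 (adjusted p = 0.0893).

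None of the jacalin-related lectin genes AT1G52060, AT1G52070 and AT1G52100 was called between HRE2ox and WT in hypoxia, but other fits of the same arrays called some of them. AT1G52100 read 6.92 and 7.16 in HRE2ox hypoxia, against 8.16 and 8.13 in WT hypoxia, with no overlap and a difference of -1.10 ± 0.18 (adjusted p = 0.0967). AT1G52070 differed by -1.62 ± 0.44 (adjusted p = 0.276) and AT1G52060 by -1.41 ± 0.32 (adjusted p = 0.211). A replicate block called AT1G52060 (adjusted p = 0.0441) and AT1G52070 (adjusted p = 0.0453), and a block for the 4 arrays apart called all 3 (adjusted p = 0.0189 to 0.0294) and their neighbour AT1G52050, at -1.18 (adjusted p = 0.0499). On leaving out 1 array none was called, and AT1G52070 ran from -2.13 to -1.11. These genes are neighbours and close relatives, and their probe sets were not checked for shared sequence.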
